A study of Mus musculus with 16 samples.

Results

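The genes of the respiratory chain and of ATP synthase were examined in mouse brain, split by the genome that encodes them. Members were the protein-coding genes whose mouse symbol begins with mt-Nd, mt-Co, mt-Atp or mt-Cytb, or with Nduf, Uqcr, Cox4, Cox5, Cox6, Cox7, Cox8 or Atp5, with Ndufa4l2 left out. Of the 21804 genes with deposited values, 99 met this rule, 12 mitochondrial-encoded and 87 nuclear-encoded. The nuclear members were 7 core subunits, 28 accessory subunits and 8 assembly factors of complex I, 8 genes of complex III, 17 of complex IV, 17 of ATP synthase, the supercomplex factor Cox7a2l and the ATP synthase-related gene Atp5s. mt-Atp8, Ndufa6 and Cox8c were not analysed here.

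The RNA came from 8 C57BL/6 mice aged 4 months, and no drug treatment is named. Every animal carried the Pdgfb ret allele, which lacks the stretch that keeps the growth factor PDGF-B at the vessel wall. The controls, Pdgfb ret/wt (n = 4), carried it on 1 chromosome and Pdgfb ret/ret animals (n = 4) on both, so no group was free of the allele. Each animal gave a cortex and a thalamus library, and the 16 libraries formed 4 groups of 4. The ret/ret thalamus pieces were calcified spots cut out under a fluorescence stereomicroscope, whereas the ret/wt pieces were tissue from the matching place. In thalamus, genotype and way of dissection therefore cannot be told apart. Within ret/ret animals, region and calcification cannot be told apart either, and the region comparison over both genotypes includes these pieces. The labels give each animal its own letter, so p-values between genotypes measure the spread between animals. In bulk tissue, fewer cells of a type and less RNA per cell cannot be told apart.

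Complex I takes electrons from NADH and complex III passes them by way of cytochrome c to complex IV, which reduces oxygen. Complexes I, III and IV pump protons across the inner mitochondrial membrane, and ATP synthase uses the return of those protons to make ATP. The small circular mitochondrial genome encodes membrane core subunits of these complexes, transcribed as long precursors that are cut into single mRNAs. All other subunits are made from nuclear genes and imported. In brain most ATP for ion pumping at synapses comes from this chain.

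The 16 libraries held 13415438 to 29135220 rounded counts, so a floor of 3 counts lay at 0.103 to 0.224 CPM (counts scaled to a common library total). Such a floor covers counting error only. Markers of excitatory neurons of cortex summed to between 738 and 2566 CPM in the cortex libraries and between 65.5 and 331 CPM in the thalamus libraries, in the direction of the labels. The libraries of 2 animals, ret/wt replicate 3 and ret/ret replicate 2, held 52.4 to 71.8 CPM of the Y-linked Ddx3y against at most 0.214 CPM elsewhere, which sets apart 1 animal of each genotype. The cortex libraries of the same animals held cerebellar markers, 6 genes that summed to 1009 CPM in the ret/wt and 2695 CPM in the ret/ret library, where the group medians were 32.8 and 29.4 CPM. Results without these 2 animals are given where they differ. ret/wt thalamus replicate 4 stood apart in nuclear-encoded members, and results that rest on it are given without it.

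Mitochondrial-encoded transcripts stood far above nuclear-encoded ones. The median level was 4383 CPM per kilobase of transcript over the 12 mitochondrial members and 91.3 over the 87 nuclear members, as means of 16 libraries. Counted per kilobase of coding sequence the nuclear median was 184. mt-Co1, the catalytic subunit of complex IV, was highest at 16253 CPM per kilobase, followed by mt-Co2 at 9135 and mt-Cytb, the electron-carrying subunit of complex III, at 7035. This order counts only reads listed under the mitochondrial genes. With the counts of nuclear copies described below added, mt-Co1 stood at 17749 CPM per kilobase and mt-Co2 at 11300, and mt-Atp6 (from 6603 to 9068) and mt-Co3 (from 4513 to 8946) came above mt-Cytb. Within the mitochondrial genome the levels were unequal. mt-Nd4l lay at 15 CPM per kilobase, mt-Nd6, the only member read from the minus strand, at 22.3, and mt-Nd3 at 164. Sample preparation selected polyadenylated RNA, so these values count transcripts that were caught by that step.

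Among nuclear members the highest of their roles included Ndufb9 at 201 CPM per kilobase (complex I accessory), Uqcrh at 265 (complex III), Cox4i1 at 580 (complex IV) and Atp5b, the catalytic beta subunit, at 844 (ATP synthase). The lowest were Ndufs3 at 59.0 (complex I core), Ndufab1 at 9.89 (complex I accessory), Uqcrq at 29.2, Cox8b at 0.0903 and a row of its own that also carries the symbol Atp5o at 0.364. Complex I assembly factors, which build the complex and are not part of it, were low as a group, from Ndufaf6 at 5.75 to Ndufaf5 at 33.3 CPM per kilobase. Several of these ranks depend on the length used. Per kilobase of coding sequence Ndufb8 (357) was highest and Ndufv3 (28.0) lowest among complex I accessory genes. By that measure Uqcrc1 (96.8) was lowest in complex III, Cox6c (996) highest in complex IV and Ndufaf4 (50.5) highest among assembly factors. The plot of levels by role shows the step between the genomes in every complex.

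**Figure D1:**
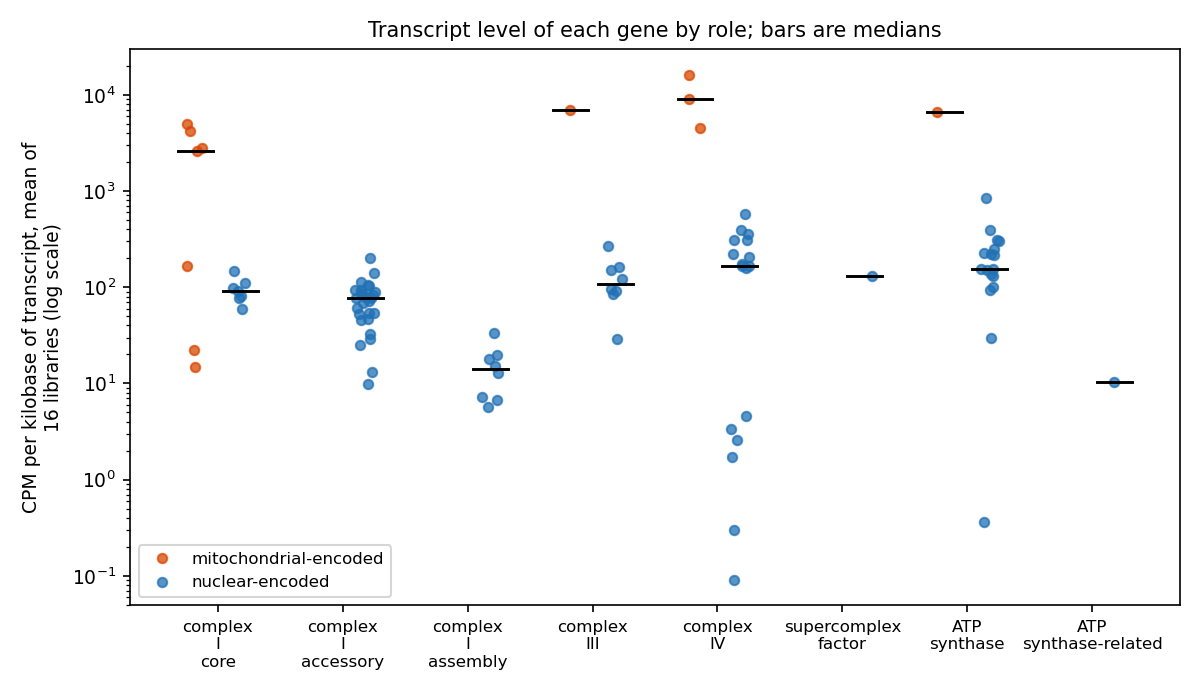
Mean CPM per kilobase of transcript over 16 libraries (log axis) for each of the 99 genes, grouped by role, with black bars for medians. The mitochondrial-encoded medians lie between 2614 and 9135 and the nuclear-encoded ones at 168 or less in every role, while mt-Nd3, mt-Nd6 and mt-Nd4l fall among the nuclear genes of complex I.

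Several chain subunits come as paired genes, a widespread form and one known from muscle, testis or lung. In each pair the widespread form took nearly all of the summed level per kilobase. Cox4i2, an oxygen-related form of subunit IV, made up 0.0979% to 0.614% of the Cox4i1 and Cox4i2 sum (median 0.282%). Cox6a2 held 0.129% to 2.94% of its pair, Cox6b2 0.380% to 6.84% and Cox7a1 0.147% to 1.44% of the set with Cox7a2 and Cox7a2l. Cox7b2 never exceeded 10 counts and was at 0 in 4 libraries, and Cox8b never exceeded 2 counts and was at 0 in 9. The c-ring of ATP synthase was split otherwise, since 3 genes encode the same mature protein: Atp5g3 held 62.8% to 77.2%, Atp5g2 17.5% to 28.2% and Atp5g1 4.61% to 9.64%. These shares rest on the length used, 4715 nt for Atp5g1 against 753 nt for Atp5g2 and 723 nt for Atp5g3. Without division by length, Atp5g1 stood above Atp5g2. Mean log2 CPM was 7.76 for Atp5g3, 7.09 for Atp5g1 and 6.10 for Atp5g2.

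For 5 mitochondrial members a second gene on chromosome 1, a nuclear copy of mitochondrial DNA, has a row of its own. Over the aligned bases mt-Co3 and Gm28437 (783 bases), mt-Co2 and Gm28661 (681) and mt-Atp6 and Gm10925 (678) had 0 differences, so no read from the shared stretch can be told apart. mt-Nd3 and Gm28438 differed at 1 of 345 bases, T3C, and mt-Co1 and Gm29216 at 6 of 492, T1056A, C1057T, A1059G, A1060G, C1062A and A1066T. Positions count from 1 at the start of the mitochondrial transcript, and the base of the mitochondrial gene comes before the position. On GRCm38 the genes lie at chrM:8607-9390 (mt-Co3), chrM:7013-7696 (mt-Co2), chrM:7927-8607 (mt-Atp6), chrM:9459-9806 (mt-Nd3) and chrM:5328-6872 (mt-Co1), all on the plus strand, and each is 1 exon. The copies lie on the minus strand of chromosome 1 in one run, from chr1:24612775-24613119 (Gm28438) to chr1:24615706-24616197 (Gm29216). A stretch of 3 gene and copy pairs from the GENCODE M21 transcripts, 5′ to 3′, is printed here to show how little tells them apart, with differing bases in capitals.
mt-Co2, bases 642 to 681: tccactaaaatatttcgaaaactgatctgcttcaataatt
Gm28661, the same bases: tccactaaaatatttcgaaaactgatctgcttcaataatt
mt-Nd3, bases 1 to 23: atTaacctgtacactgttatctt
Gm28438, the same bases: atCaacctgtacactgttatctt
mt-Co1, bases 1054 to 1086: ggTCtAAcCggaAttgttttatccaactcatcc
Gm29216, the same bases: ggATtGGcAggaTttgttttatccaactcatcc

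Counts were divided between gene and copy in a way that varied widely from library to library. The copy held 0% to 79.6% of the summed counts for mt-Co3 (median 48.7%), 4.91% to 69.3% for mt-Atp6 (median 26.4%), 1.71% to 47.5% for mt-Co2 (median 13.2%) and 4.68% to 28.0% for mt-Co1 (median 7.63%). Gm28438 was at 0 in 14 libraries and took 83.7% of the mt-Nd3 sum in its highest. Between regions the division did not differ in 1 direction. For mt-Atp6 the median copy share was 45.6% in ret/ret cortex against 16.8% in ret/ret thalamus and 34.9% against 14.4% in ret/wt animals, and for mt-Co2 39.5% against 13.2% in ret/ret and 15.2% against 3.90% in ret/wt animals. For mt-Co3 the share was 63.3% in cortex against 45.7% in thalamus in ret/ret animals but 36.9% against 45.3% in ret/wt animals. For mt-Co1 it was 8.66% against 6.91% in ret/ret and 6.44% against 8.53% in ret/wt animals. These differences in share were not tested. Since the division varied, the values of these 5 genes are given below also with the counts of the copy added. mt-Nd1, mt-Nd4, mt-Nd4l and mt-Nd6 shared no 31-base word with any other gene that has a deposited row. mt-Co1 shared 63.9% of its words with other deposited rows, and 29.6% with Gm29216. mt-Nd5 (16.8%), mt-Nd2 (13.5%) and mt-Cytb (6.55%) shared words as well. Only the chromosome 1 copies were added, so the sums may leave out reads listed under other rows.

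**Figure D2:**
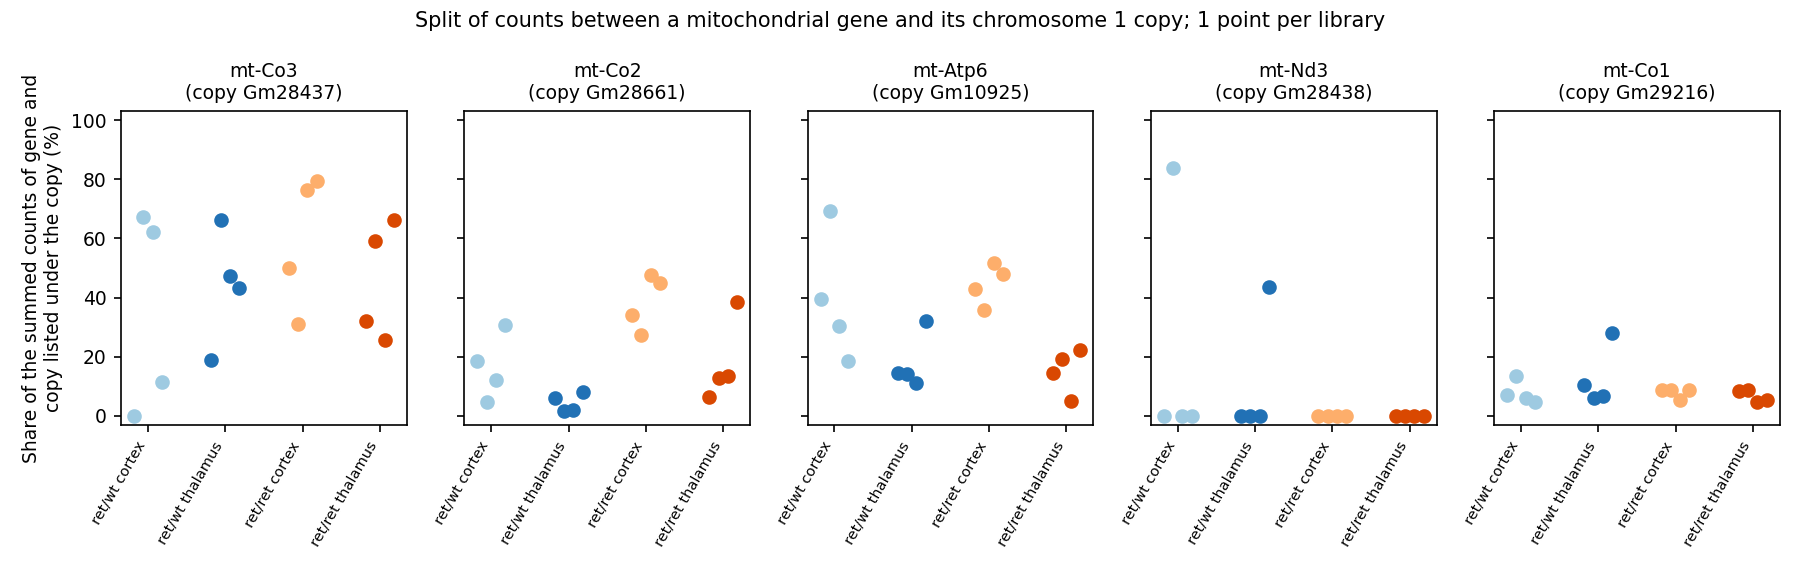
Share of the summed counts of a mitochondrial gene and its chromosome 1 copy that is listed under the copy (%), 1 point per library, 4 per group. The share runs from 0% to 79.6% for mt-Co3, and for mt-Atp6 and mt-Co2 it is higher in ret/ret cortex (medians 45.6% and 39.5%) than in ret/ret thalamus (16.8% and 13.2%).

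The share of a library's counts that fell on the chain is shown first, before any scaling. The 12 mitochondrial members took 3.98%, 3.22%, 8.43% and 5.87% in ret/wt cortex (replicates 1 to 4) and 4.24%, 6.25%, 8.80% and 6.89% in ret/wt thalamus. They took 4.45%, 5.69%, 4.29% and 7.04% in ret/ret cortex and 8.19%, 5.87%, 10.1% and 12.1% in ret/ret thalamus. The ret/ret thalamus libraries reached highest, yet the lowest of them lay below 3 of the 4 ret/wt thalamus libraries, and the ranges of the 4 groups overlapped. With the chromosome 1 copies added, the shares of the 4 ret/ret thalamus libraries were 8.85%, 6.66%, 10.7% and 14%, and those of ret/wt thalamus 4.57%, 6.92%, 9.56% and 8.58%.

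Nuclear members took 0.838%, 0.979%, 0.951% and 0.812% of the counts in ret/wt cortex and 0.988%, 0.992%, 1.35% and 2.20% in ret/wt thalamus. In ret/ret cortex they took 1.01%, 1.13%, 0.860% and 1.02%, and in ret/ret thalamus 1.35%, 1.26%, 1.2% and 1.34%. The 4 ret/ret thalamus libraries lay close together and above all ret/ret cortex libraries. In ret/wt thalamus, replicate 4 alone carried more than any other library. Cytosolic ribosomal protein genes, which have no part in respiration but share short and abundant transcripts, were high in that library too, at 2.75% against 1.25% to 1.42% in the other ret/wt thalamus libraries.

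Within an animal the thalamus exceeded the cortex in 8 of 8 animals, both for the mitochondrial share (ratio 1.03 to 2.36) and for the nuclear share (1.01 to 2.71). The ribosomal protein share did the same, at 1.0 to 2.65, so the direction was not particular to respiratory genes. The mitochondrial to nuclear ratio was higher in thalamus in 4 of 8 animals.

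**Figure D3:**
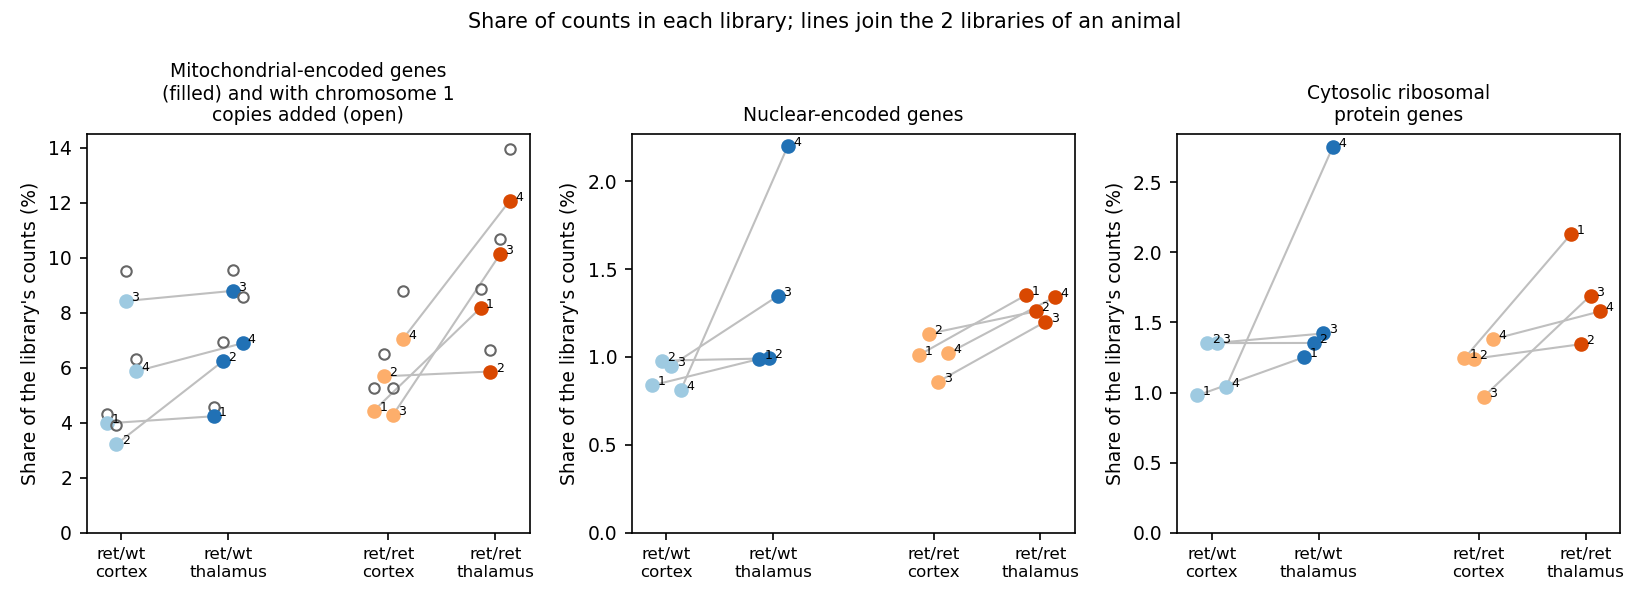
Share of each library's counts (%) on mitochondrial-encoded genes (left, open circles with chromosome 1 copies added), nuclear-encoded genes (middle) and cytosolic ribosomal protein genes (right), with a line joining the cortex and thalamus of an animal and its replicate number beside each point. All 8 lines rise towards thalamus in each panel, and ret/wt replicate 4 lies at 2.20% and 2.75% in thalamus in the middle and right panels.

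Mitochondrial members also varied more between animals of 1 group. The median within-group standard deviation of log2 CPM was 0.63 over the 12 mitochondrial members and 0.35 over 81 nuclear ones, beside 0.37 over 12772 genes and 0.32 over the 198 most abundant genes. Genotype differences in mitochondrial transcripts were thus read against a wide spread.

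In thalamus, no mitochondrial member passed the test between ret/ret and ret/wt animals, although 10 of 12 fold changes were above 0. mt-Co1 had 26346, 21488, 39100 and 49650 CPM in ret/ret thalamus and 13982, 22035, 34596 and 20958 CPM in ret/wt thalamus, with CPM of single libraries scaled by TMM over all 16. The ret/ret values reached higher, but the groups overlapped, and the log2 fold change was 0.60 with a standard error (SE) of 0.33. mt-Cytb had 8632, 6958, 12042 and 15174 CPM against 4623, 7168, 10691 and 7878 CPM, overlapping again, with a log2 fold change of 0.52 (SE 0.31). mt-Nd5, of the proton-pumping arm of complex I, had the largest fold change among the 12, 0.70 (SE 0.35, unadjusted p = 0.0757 in edgeR). Its ret/ret values were 5417, 4222, 7136 and 8908 CPM and its ret/wt values 2925, 5045, 6178 and 2050 CPM.

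The fold changes of mt-Nd2 (0.61), mt-Nd4 (0.53), mt-Nd1 (0.45), mt-Atp6 (0.39), mt-Nd6 (0.23), mt-Nd3 (0.16) and mt-Co3 (0.14) were above 0 on the log2 scale, and those of mt-Co2 (-0.04) and mt-Nd4l (-0.31) below. The median of the 12 was 0.42, with -0.02 over all genes. It was 0.23 without ret/wt thalamus replicate 1, 0.27 without ret/ret thalamus replicate 4 and 0.65 without ret/wt thalamus replicate 3. With edgeR's quasi-likelihood F test and p-values adjusted by Benjamini-Hochberg over all genes, 0 of 12 passed the threshold of 0.05, as did 0 at an unadjusted p under 0.05, 0 in DESeq2 and 0 in limma-voom. Among all 14767 genes tested 0% were called in either direction, and 3.93% had an unadjusted p under 0.05. With copies added, the fold change of mt-Co2 was 0.22 and that of mt-Co1 0.49, and none passed. Without the animals holding Y-linked reads the median of the 12 was 0.81, and 7 of 12 had an unadjusted p under 0.05, but again 0 passed after adjustment. The 3.93% belongs to the fit with all animals, and no share of all genes is given here for the fit without these animals. Microglial markers were higher in this contrast, though none was called: the 7 summed to 364 to 489 CPM in ret/ret thalamus and 246 to 302 CPM in ret/wt thalamus, none at 0. Inhibitory neuron markers summed to 429 to 990 CPM against 944 to 1234 CPM, overlapping. Single markers of other cell types had an unadjusted p under 0.05 in edgeR, among them Gad1 (-0.63), Mobp (0.70) and Slc1a3 (0.48). The part of cell type markers in the result was not tested.

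Nuclear members lay near 0 in the same contrast. Their median log2 fold change was -0.03, with 36 of 84 above 0, and 0 of 84 passed the adjusted threshold or an unadjusted p under 0.05. By role the medians were -0.19 for core complex I, -0.04 for accessory complex I, -0.08 for its assembly factors, 0.05 for complex III, 0.03 for complex IV and -0.03 for ATP synthase. Without ret/wt thalamus replicate 4 the nuclear median was 0.24, 73 of 84 were above 0 and 15 had an unadjusted p under 0.05, still with 0 passing. The share of all genes at that unadjusted p is not given here for this fit, so the 15 have no background to be read against. Without that library the median was 0.34 for cytosolic ribosomal protein genes and 0.36 for other genes with transcripts under 1000 nt.

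Cox4i2 was the 1 member whose genotype groups did not overlap in thalamus, where 1.03% of all genes did so in the lower and 1.7% in the higher direction. It had 1.29, 0.894, 1.21 and 0.503 CPM in ret/ret thalamus and 1.42, 1.66, 1.55 and 3.42 CPM in ret/wt thalamus. Every ret/ret value lay below every ret/wt value, by a narrow margin except for replicate 4 of each genotype. The log2 fold change was -1.02 (SE 0.48, unadjusted p = 0.0602, adjusted p = 1.0 in edgeR), and -0.61 without ret/wt thalamus replicate 4. In cortex the direction was not the same: ret/ret cortex had 0.799, 2.05, 0.949 and 1.04 CPM and ret/wt cortex 1.02, 1.02, 0.747 and 0.597 CPM, with a fold change of 0.55 (SE 0.43), and 0.16 without ret/ret cortex replicate 2. The test of the difference between regions gave -1.57 (SE 0.64, unadjusted p = 0.0266, adjusted p = 1.0 in edgeR). It was -1.19 without ret/wt thalamus replicate 4 and -1.18 without ret/ret cortex replicate 2, and the unadjusted p was above 0.05 in both. Cox4i2 is known from vascular mural cells. The 10 pericyte markers summed to 68.1 to 235 CPM in ret/ret thalamus and 112 to 353 CPM in ret/wt thalamus, none at 0. In cortex they summed to 54.5 to 121 CPM against 108 to 162 CPM. The sums overlapped between genotypes in both regions. Of the markers, 0 of 10 tested were called in thalamus and 1 of 8 in cortex, Rgs5, which was lower in ret/ret animals (-1.70, adjusted p = 0.041 in edgeR). In thalamus, where no gene at all was called, Rgs5 was lower in ret/ret animals too (-1.43, adjusted p = 0.216 in edgeR). No gene had a smaller adjusted p there. The part of the pericyte markers in the Cox4i2 values was not tested.

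In cortex most nuclear members had fold changes above 0, though none passed the test. The median log2 fold change of ret/ret over ret/wt was 0.15, with 71 of 84 above 0, and that of other genes with transcripts under 1000 nt was 0.11. Uqcr10, a small subunit of complex III, had 36.7, 37.6, 36.3 and 43.6 CPM in ret/ret cortex and 27.1, 33.2, 28.7 and 34.7 CPM in ret/wt cortex. The groups did not overlap, and the fold change was 0.34 (SE 0.15, unadjusted p = 0.0517 in edgeR). Atp5a1 was the other nuclear member without overlap, making 2 of 84, where 1.58% of all genes did so in the higher and 0.735% in the lower direction. Ndufb5 (0.36, unadjusted p = 0.0541) and Ndufc1 (0.34, unadjusted p = 0.0826), both accessory to complex I, came next by p.

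In edgeR 0 of 84 nuclear and 0 of 12 mitochondrial members passed in cortex, DESeq2 and limma-voom called 0, and 0.021% of all 14288 genes were called in either direction. At an unadjusted p under 0.05 in edgeR there was 1 member, mt-Nd4l, against 3.77% of all genes. Its fold change was -4.02 (SE 1.48, unadjusted p = 0.0225 in edgeR's test). Its values were 0.628, 53.8, 0.747 and 0.652 CPM in ret/wt cortex and 0.508, 1.05, 1.02 and 0.716 CPM in ret/ret cortex. Only replicate 2 of ret/wt cortex was high, and without it the fold change was 0.29. The mitochondrial median in cortex was -0.10, with 4 of 12 above 0, and 0.30 without the animals holding Y-linked reads or without ret/wt cortex replicate 3 alone.

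The difference between the genotype effects in thalamus and cortex had a median of 0.51 on the log2 scale over the mitochondrial and -0.17 over the nuclear members. Without ret/wt cortex replicate 3 the mitochondrial median was 0.16. In the edgeR interaction test 0 of 96 tested members passed after adjustment, as did 0% of 15286 genes in either direction, and 0 members passed in DESeq2 or limma-voom. At an unadjusted p under 0.05 there were 3 members, mt-Nd4l (3.73), Cox4i2 and Ndufaf5 (-0.55, unadjusted p = 0.0292), against 1.6% of all genes. The value of mt-Nd4l was -0.60 without ret/wt cortex replicate 2, its 1 high library. Without ret/wt thalamus replicate 4 the nuclear median was 0.11.

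**Figure D4:**
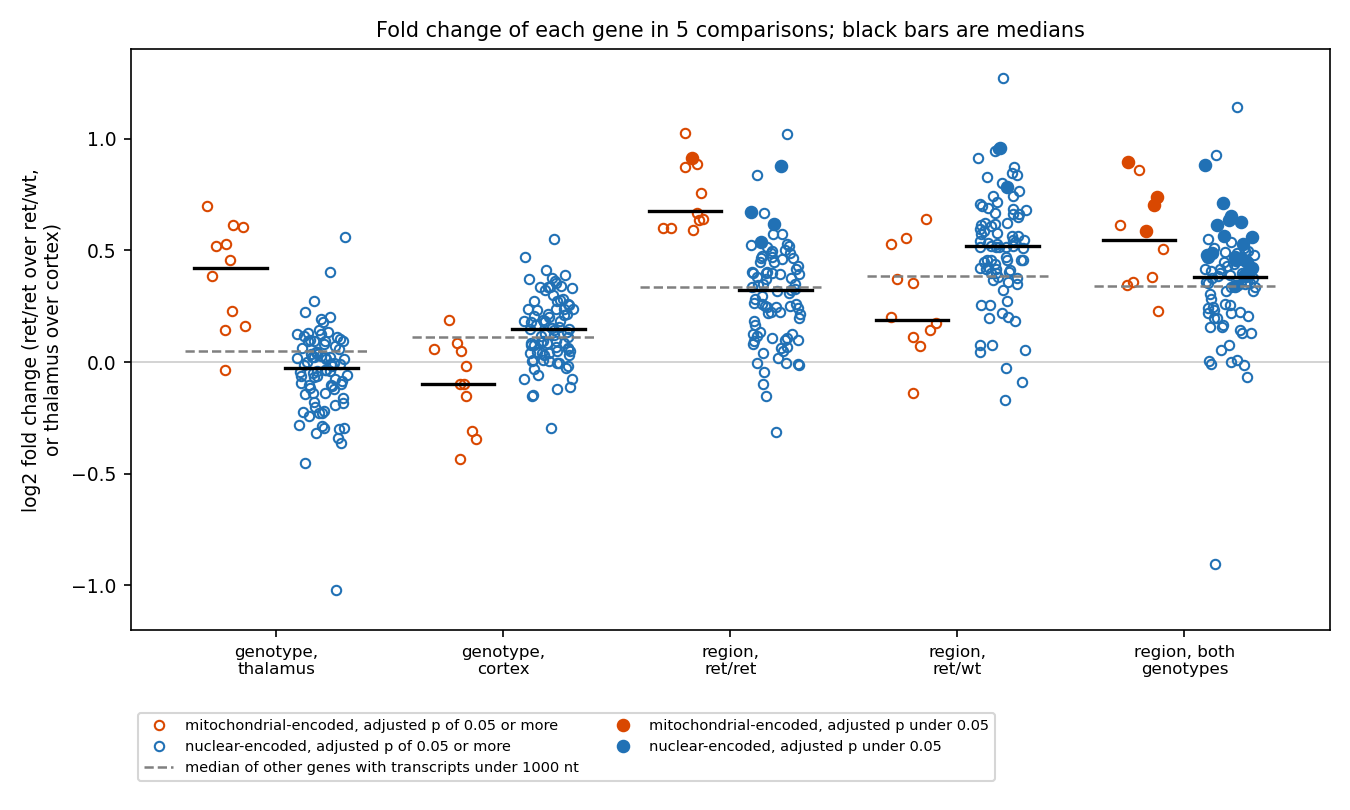
log2 fold change of each tested member in 5 comparisons (mitochondrial-encoded orange, nuclear-encoded blue, filled where the adjusted p is under 0.05), with black bars for medians and a dashed line for the median of other genes with transcripts under 1000 nt. mt-Nd4l is counted in the medians but not drawn, since its cortex value of -4.02 lies off the scale. No point is filled in the genotype comparisons, and in the pooled region comparison 4 mitochondrial and 20 nuclear members are.

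Between regions some members passed the test. The region tests within a genotype and the interaction test above had no animal term, so they treated the cortex and thalamus library of an animal as independent. In ret/ret animals, 1 of 12 mitochondrial members (mt-Co2) and 4 of 84 nuclear members (Ndufaf2, Uqcrh, Atp5e and Atp5j2) were higher in thalamus in edgeR's test after adjustment and 0 were lower, while 4.1% of all 14715 genes were called higher and 5.4% lower. The calls among the nuclear members, 4 of 84, were thus near the background. By overlap the picture was different, since 30 of 84 nuclear members had every thalamus value above every cortex value and 0 the reverse, against 8.18% and 9.27% of all genes. Among other genes with transcripts under 1000 nt 86 of 573 were higher without overlap, and 16 of 91 cytosolic ribosomal protein genes. Of the 30, 15 were accessory and 3 core subunits of complex I, 2 assembly factors, 2 of complex III, 2 of complex IV and 6 of ATP synthase. Without ret/ret replicate 2, which held cerebellar markers, 16 members were called, and with 1 library left out at a time between 0 and 12. Of all genes, 627 to 2007 were called with 1 library left out. Their number without ret/ret replicate 2 in both regions is not given here.

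In ret/wt animals 2 of 84 nuclear members, Ndufb5 and Ndufaf5, were called higher and 0 of 12 mitochondrial members, with 5.44% of all 14442 genes called higher and 7.12% lower. With the animal as a block 1 member was called, and without ret/wt replicate 3 in both regions 0. 8 of 84 nuclear members did not overlap, all higher in thalamus, near the 8.97% of all genes that did so, while 11% of all genes were lower without overlap. The nuclear median was 0.52, and 0.22 without ret/wt thalamus replicate 4. The mitochondrial median was 0.19 in ret/wt and 0.68 in ret/ret animals, and the ret/wt value ran from 0.0137 without ret/wt thalamus replicate 3 to 0.62 without ret/wt cortex replicate 3. Leaving out replicate 1, 2 or 3 of ret/wt, in either region, moved it by over 1.5 times.

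A fit over all 16 libraries with the animal as a block, chosen after these values were seen, gave the region difference with the most precision. It called 4 of 12 mitochondrial and 20 of 84 nuclear members higher in thalamus and 0 lower, where 13.7% of all 15286 genes were called higher and 16% lower. The nuclear median was 0.38 with 80 of 84 above 0, and the mitochondrial median 0.55 with 12 of 12 above 0. Without ret/wt replicate 4 the nuclear median was 0.24 with 75 of 84 above 0, and the mitochondrial median 0.58. Higher in thalamus in all 8 animals were 17 of 84 nuclear members (20.2%) and 2 of 12 mitochondrial ones, mt-Atp6 and mt-Co2, against 8.77% of all genes. So were 15 of 78 mitochondrial ribosomal protein genes (19.2%), 86 of 606 other genes with transcripts under 1000 nt (14.2%) and 12 of 91 cytosolic ribosomal protein genes (13.2%). With copies added, neither mt-Atp6 nor mt-Co2 was higher in thalamus in all 8 animals. In ret/wt replicate 1 the mt-Atp6 sum was 3668 CPM in thalamus and 3875 CPM in cortex. In ret/ret replicate 2 the mt-Co2 sum was 6311 CPM in thalamus and 6548 CPM in cortex. After TMM scaling, single mitochondrial members as deposited were higher in thalamus in 4 (mt-Nd4) to 8 animals. Leaving out 1 animal at a time, this fit called 12 to 35 members and 3448 to 5063 of all genes. Without the animals holding Y-linked and cerebellar transcripts it called 21, 15 of them shared with the full fit. Without ret/wt replicate 4 it called 19, 18 of them shared with the full fit. Ndufs8, Ndufa12, Ndufc1, Uqcrc1, Atp5g1 and mt-Co2, named as called below, were not called without that animal.

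Complex I gave 2 of its 7 nuclear core subunits (Ndufs8 and Ndufv2) and 7 of its 28 accessory subunits (Ndufa11, Ndufa12, Ndufa13, Ndufb5, Ndufb8, Ndufb11 and Ndufc1). Ndufb8, an accessory subunit of the membrane arm, had 115, 122, 125 and 115 CPM in ret/wt cortex and 162, 143, 235 and 297 CPM in ret/wt thalamus. It had 168, 128, 104 and 133 CPM in ret/ret cortex and 259, 179, 196 and 211 CPM in ret/ret thalamus. Thalamus lay above cortex in 8 of 8 animals, with a log2 fold change of 0.71 (SE 0.13, adjusted p = 0.00227 in edgeR). Ndufb5 (0.65, adjusted p = 0.00607), Ndufa11 (0.61, adjusted p = 0.0139) and Ndufa13 (0.56, adjusted p = 0.0132) followed it by size among the accessory subunits.

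Of the 8 assembly factors of complex I, 2 were called, Ndufaf2 and Ndufaf5. Ndufaf2, a chaperone of a late assembly step, had 9.18, 8.55, 12 and 7.76 CPM in ret/wt cortex and 14, 12.6, 16.2 and 28.7 CPM in ret/wt thalamus. It had 8.28, 7.07, 9.53 and 12.1 CPM in ret/ret cortex and 16.4, 16.3, 15.6 and 19.5 CPM in ret/ret thalamus. The regions did not overlap in either genotype, and the fold change was 0.88 (SE 0.17, adjusted p = 0.00321 in edgeR). The median of the 8 assembly factors was 0.10.

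Complex III gave Uqcrh and Uqcrc1. Uqcrh, the hinge subunit beside cytochrome c1, had 97.0, 104, 145 and 89.9 CPM in ret/wt cortex and 109, 153, 214 and 292 CPM in ret/wt thalamus, overlapping. In ret/ret animals the cortex had 112, 126, 107 and 111 CPM and the thalamus 174, 161, 150 and 175 CPM, without overlap. The fold change was 0.64 (SE 0.15, adjusted p = 0.0105 in edgeR), and 8 of 8 animals were higher in thalamus.

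Complex IV had the fewest calls, 1 of 15, Cox7c (0.40, adjusted p = 0.0253 in edgeR), with a median of 0.38 as for all nuclear members. Cox6a2 went the other way at -0.90, but with an SE of 0.85, and its 16 values ran from 0.259 to 10.8 CPM. Cox4i1 had a fold change of 0.38 (adjusted p = 0.129), Cox6b2 of 1.14 (adjusted p = 0.119) and Cox7a1 of 0.93 (adjusted p = 0.0907), and the 3 thus did not pass. The supercomplex factor Cox7a2l, which helps join complexes III and IV, was called at 0.47 (adjusted p = 0.0253) and higher in 8 of 8 animals. ATP synthase gave 5 of 16: Atp5e (0.62, adjusted p = 0.0151), Atp5j2 (0.56, adjusted p = 0.0209), Atp5h (0.53, adjusted p = 0.0207), Atp5j and Atp5g1.

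Among mitochondrial members mt-Atp6 (0.90, SE 0.25, adjusted p = 0.0188), mt-Nd6 (0.74, SE 0.22, adjusted p = 0.028), mt-Co2 (0.70, SE 0.20, adjusted p = 0.0209) and mt-Nd1 (0.59, SE 0.18, adjusted p = 0.0281) were called in edgeR. mt-Co2 had 3704, 5388, 8586 and 4411 CPM in ret/wt cortex and 4377, 6202, 9631 and 11258 CPM in ret/wt thalamus. In ret/ret animals it had 3526, 4768, 2806 and 5020 CPM in cortex and 7896, 5501, 8965 and 7931 CPM in thalamus, without overlap, and it was higher in thalamus in 8 of 8 animals. With the counts of Gm28661 added the ret/ret regions overlapped, at 9098 CPM in cortex replicate 4 and 6311 CPM in thalamus replicate 2. The thalamus of ret/ret replicate 2 then lay below its cortex (6548 CPM). The fold change of mt-Co2 with Gm28661 added was 0.42 and the call was lost (adjusted p = 0.0537). mt-Atp6 likewise fell from 0.90 to 0.36 once Gm10925 was added (adjusted p = 0.091). In ret/ret animals alone the fold change of mt-Co2 was 0.91 as deposited (adjusted p = 0.0476) and 0.56 with the copy added (adjusted p = 0.224).

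With copies added, mt-Nd3 (0.75, adjusted p = 0.00977) and mt-Co1 (0.42, adjusted p = 0.0447) passed in their place. mt-Nd1 and mt-Nd6, which share no 31-base word with another deposited gene, are not touched by this division. mt-Nd1 had 2865, 1782, 6514 and 4098 CPM in ret/wt cortex and 2703, 4617, 7276 and 4907 CPM in ret/wt thalamus, and 3402, 3681, 3011 and 5496 CPM in ret/ret cortex and 6401, 4329, 6710 and 8812 CPM in ret/ret thalamus. It was higher in thalamus in 7 of 8 animals, and the groups overlapped in both genotypes.

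Transcript length moved with region in all genes. Over genes that are not members the median log2 fold change of thalamus over cortex fell from 0.41 for transcripts of up to 700 nt to -0.31 for those over 10000 nt. Most nuclear members are short, with a median of 870 nt. Against the median of their own length class they lay 0.09 higher, 57 of 84 above it, and the mitochondrial members 0.23 higher, 11 of 12 above it. These distances used counts as deposited. With copies added, mt-Atp6 (0.36) lay below the median of its class in the fit without added copies (0.41). mt-Co2 (0.42) and mt-Co3 (0.32) then lay close to theirs (0.41 and 0.31), and mt-Nd3 (0.75) and mt-Co1 (0.42) stayed above theirs (0.41 and 0.17). Other genes with transcripts under 1000 nt had 131 of 606 called higher and a median of 0.34, and cytosolic ribosomal protein genes 16 of 91 with a median of 0.38. The nuclear members of 1000 nt or more kept a median of 0.36, with 11 of 36 called, where other genes of 1000 to 2000 nt had 0.19 and 498 of 2733. Without ret/wt replicate 4 the distances to the class medians were 0.06 and 0.35. The part of length and RNA quality in the result was not tested.

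**Figure D5:**
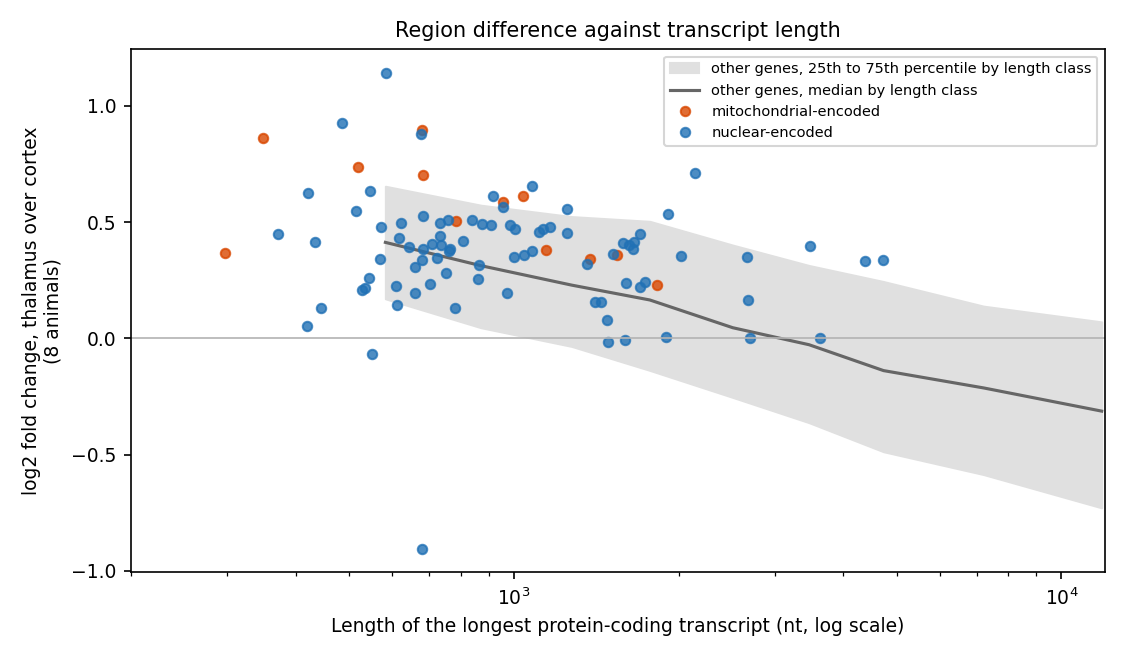
log2 fold change of thalamus over cortex in all 8 animals (vertical axis) against the length of the longest protein-coding transcript (nt, log axis) for each tested member, with the median and the 25th to 75th percentile of other genes by length class in grey. The grey median falls from 0.41 at the shortest to -0.31 at the longest transcripts, and 11 of 12 mitochondrial members lie above it with counts as deposited, without the chromosome 1 copies.

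Cell types moved with region as well. The 6 oligodendrocyte markers were all called higher in thalamus, and they summed to 1770 to 4419 CPM in ret/wt cortex, 9446 to 11470 CPM in ret/wt thalamus, 2399 to 4401 CPM in ret/ret cortex and 10509 to 16358 CPM in ret/ret thalamus, none at 0. The 10 general neuron markers summed to 8431 to 10411 CPM in ret/wt cortex and 5851 to 8967 CPM in ret/wt thalamus, none at 0, and the 7 astrocyte markers to 5350 to 6125 CPM and 2268 to 4442 CPM. In ret/ret animals the neuron markers summed to 6754 to 10832 CPM in cortex and 5112 to 8143 CPM in thalamus, and the astrocyte markers to 5755 to 7508 CPM and 3209 to 4045 CPM. Single neuron markers did not move alike. Nefh was higher in thalamus in the pooled fit (2.14, adjusted p = 2.29e-05 in edgeR). Rbfox3 was lower in thalamus within ret/ret animals (-1.23, adjusted p = 0.00388 in edgeR). Their part in the region difference of the members was not tested.

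Promoters of the nuclear members were searched for the letters bound by factors known to drive respiratory genes. RefSeq entries were found for 86 of 87 nuclear members, and 72 had a promoter window, 77 windows in all, each 250 bases before to 50 bases after a start on GRCm38.p6. The NRF1 core CGCATGCG, which reads the same on both strands, was in 11 windows (14.3%) and in 2.52% of 21262 protein-coding promoter windows of the same length. The YY1 letters AAGATGGC or their reverse complement were in 11 windows (14.3%) against 3.05%. The ETS letters CCGGAAGT or their reverse complement, bound by GABP, were in 5 windows (6.49%) against 5.15%. No motif contains another. A match is a description of letters only. The 250 bases before the start are printed for 3 members that were higher in thalamus and hold a match, with matches in capitals, for Ndufa11 (chr17:56717512-56717761, plus strand, NRF1), Atp5j (chr16:84834977-84835226, minus strand, NRF1 then YY1) and Uqcrh (chr4:116075071-116075320, minus strand, ETS as its reverse complement).
Ndufa11: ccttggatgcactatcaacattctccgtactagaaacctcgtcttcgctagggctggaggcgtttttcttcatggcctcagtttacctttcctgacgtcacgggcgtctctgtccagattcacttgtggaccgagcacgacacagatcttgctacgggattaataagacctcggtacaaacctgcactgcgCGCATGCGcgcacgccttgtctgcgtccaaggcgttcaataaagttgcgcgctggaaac
Atp5j: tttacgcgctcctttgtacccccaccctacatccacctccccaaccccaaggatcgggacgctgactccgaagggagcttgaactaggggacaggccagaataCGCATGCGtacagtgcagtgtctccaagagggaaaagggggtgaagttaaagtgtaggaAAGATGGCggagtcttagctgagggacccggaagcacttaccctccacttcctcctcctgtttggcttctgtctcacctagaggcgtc
Uqcrh: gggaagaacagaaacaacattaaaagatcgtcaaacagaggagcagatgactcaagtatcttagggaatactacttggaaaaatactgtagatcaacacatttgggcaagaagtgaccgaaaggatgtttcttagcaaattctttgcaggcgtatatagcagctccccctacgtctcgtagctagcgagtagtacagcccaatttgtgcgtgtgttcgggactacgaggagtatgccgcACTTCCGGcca

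Genes that serve the chain without carrying its symbols were counted in the pooled region fit from lists of pathway genes, to be read against the 13.7% of all genes called higher and 16% called lower. Complex II, the succinate dehydrogenase that also feeds the chain, had 2 of 4 called higher and 0 lower (Sdhc 0.47, adjusted p = 0.0121 in edgeR). Assembly factors of complex I and ATP synthase outside the prefixes had 4 of 10 higher and 0 lower (Atpaf2 0.63, adjusted p = 0.00451), and those of complexes III and IV 2 of 27 higher and 1 lower (Uqcc1 0.44, adjusted p = 0.00577). Mitochondrial ribosomal protein genes had 15 of 78 higher and 0 lower, with a median of 0.21. The carrier Cycs, cytochrome c, had a fold change of 0.23 (adjusted p = 0.105).

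Among lists of genes upstream of the chain, mitochondrial transcription, RNA and DNA upkeep had 0 of 27 higher and 2 lower (Fastkd5 -0.45, adjusted p = 0.0273 in edgeR), and regulators of biogenesis 0 of 9 higher and 2 lower (Yy1 -0.50, adjusted p = 0.013). The tricarboxylic acid cycle had 3 of 16 higher and 0 lower (Suclg1 0.64, adjusted p = 0.0118), glycolysis 1 of 17 higher and 2 lower (Ldha, lactate dehydrogenase, -0.86, adjusted p = 0.00122), and import and carriers 3 of 14 higher and 1 lower (Ckmt1, mitochondrial creatine kinase, 0.87, adjusted p = 0.00419). In the genotype comparisons 0 genes of these pathway lists were called in edgeR in either region. By unadjusted p in edgeR the leading genes in thalamus were Suclg2 (0.82, unadjusted p = 0.00151), Cox15, a heme A synthase, (1.03, unadjusted p = 0.0491) and Sdhc (0.34, unadjusted p = 0.0495). In cortex Cox15 led (0.80, unadjusted p = 0.0242 in edgeR).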

How the data were processed

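Polyadenylated RNA of the 16 libraries was sequenced from a stranded kit, per the labels' protocols, and quantified with kallisto 0.44.0 on GRCm38.p6, per the submitters' processing notes. The authors deposited expected counts, estimated reads per Ensembl gene, not normalized across libraries; the step from transcripts to genes is not given in the sources used here. Of 279913 values above 0, 104 were whole within 1e-06, so the expected counts were rounded before fitting. Identifiers were matched to GENCODE M21 (GRCm38) for 21612 genes (99.1%), and 192 were not matched.

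Counts were fitted in R 4.3.3 with edgeR 4.0.16 (filterByExpr at its defaults of 10 counts and a total of 15, TMM, quasi-likelihood test, Benjamini-Hochberg adjustment over all genes at 0.05), each comparison on its own 8 libraries and the interaction on all 16. A fold change is log2. limma 3.58.1, DESeq2 1.42.0, other scalings and filters, left-out libraries and the replicate block were alternatives, and the pipeline was tested on simulated data. Tables and plots used Python 3.11.15, pandas 2.3.3, numpy 2.4.6 and matplotlib 3.10.9. CPM per kilobase used the longest protein-coding transcript.

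The labels give the cortex and thalamus library of an animal the same letter, and the same number in different genotypes is a different animal. The correlation of residuals between the libraries of an animal averaged 0.0884 in ret/ret and 0.0608 in ret/wt. The members and lists were chosen with earlier results of these data known. Named were all mitochondrial members, and in each comparison the nuclear members with the largest called changes (mean log2 CPM of at least 1, groups not overlapping) or, with fewer than 5 of these, the 3 smallest p-values. Isoform sets, the highest and lowest member of each complex (1 of them is not reported here) and the smallest p of each pathway list were also named. The called members of the pooled region fit, Atp5a1, mt-Nd1 and the sequences shown were picked after their values were seen. The pooled region fit, the added copies and the fits without Y-linked animals were chosen after seeing the data.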

Additional observations from a re-analysis of the deposited data

Results flagged for a closer look

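Within groups of 4 libraries, 168 sets of values were examined for a single library far from the other 3, and 11 had one; chance alone gives about 1 in 20. 4 of these were ret/wt thalamus replicate 4: the ribosomal protein share (2.75% against 1.25% to 1.42%), Cox4i2 (3.42 CPM against 1.42 to 1.66), Ndufa11 (99.0 CPM against 42.0 to 50.4) and Cox7a2l (258 CPM against 139 to 156). In ret/wt cortex, replicate 2 was apart in mt-Nd4l (53.8 CPM against 0.628 to 0.747) and replicate 3 in Ndufv2 (177 CPM against 115 to 124).

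In ret/ret cortex, replicate 4 was apart in mt-Nd3 (79.6 CPM against 35.0 to 40.9) and mt-Cytb (9622 CPM against 6155 to 6428), replicate 2 in Cox6b2 (4.19 CPM against 0.363 to 0.977) and replicate 1 in Atp5g1 (180 CPM against 108 to 115). In ret/ret thalamus, replicate 2 was apart in Cox6a2 (10.8 CPM against 0.403 to 1.24).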

How the results depend on the processing

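In the genotype comparisons and the interaction, 0 members were called under every alternative run. Few genes were called at all there. Under other processing and sample choices these were 0 to 37 of all genes in thalamus, 0 to 38 in cortex and 0 to 4 in the interaction. With 1 library left out they were 0 in thalamus, 0 to 2 in cortex and 0 in the interaction. In ret/ret animals the region count of 5 members was 25 in DESeq2, 10 with library size alone, 11 with scaling factors set without mitochondrial rows, 16 with upper-quartile scaling, 11 with a stricter filter (1 CPM in 4 libraries), 9 with copies added, 16 without the animals holding Y-linked reads and 0 to 12 with 1 library left out. Leaving out thalamus replicate 1, 3 or 4 or cortex replicate 3 gave 0, and cortex replicate 4 gave 1. In ret/wt animals the count of 2 was 5 in DESeq2, 4 with library size alone, 0 without the Y-linked animal and 0 to 4 with 1 library left out, with 0 without cortex replicate 1, 2 or 4. Pooled over genotypes the count of 24 was 45 in DESeq2, 44 with library size alone, 49 with upper-quartile scaling and 12 to 35 with 1 animal left out. It was 12 without ret/ret replicate 1 or 3, 14 without ret/wt replicate 3 and 15 without ret/ret replicate 4. All 24 were shared with DESeq2, and 22 with the fit with copies added, which called 29. With upper-quartile scaling the median over all genes moved to 0.13 in the pooled fit. The number of all genes called moved too. In ret/ret animals it was 1398, 1177 to 2591 under other processing and sample choices, and 627 to 2007 with 1 library left out. In ret/wt animals these numbers were 1813, 1431 to 2587 and 1178 to 1797. In the pooled fit they were 4536, 4198 to 5649 and, with 1 animal left out, 3448 to 5063.

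With the animal as a replicate block the ret/wt region count was 1, and without the block the pooled fit called 30, of which 19 were shared. The genotype comparisons share numbers but not animals; there the replicate block turned mt-Co2 in thalamus to 0.0431.

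With 1 library left out, the nuclear median ran from 0.22 to 0.68 for region in ret/wt, from -0.32 to 0.11 for the interaction and, with 1 animal left out, from 0.24 to 0.46 in the pooled fit. The mitochondrial median ran from 0.23 to 0.65 for genotype in thalamus, -0.26 to 0.30 in cortex, 0.0137 to 0.62 for region in ret/wt and 0.16 to 0.73 for the interaction. In thalamus the genotype fold change of mt-Co2 was 0.0437 in limma-voom, 0.217 with copies added, 0.198 without Y-linked animals and -0.244 to 0.213 with 1 library left out. With 1 library left out mt-Co3 ran from -0.0659 to 0.386, mt-Nd3 from -0.0484 to 0.447 (-0.216 with copies added) and mt-Nd4l from -0.60 to 0.0932. In cortex mt-Nd4l ran from -4.43 to 0.295, and in the interaction from -0.60 to 4.13. The cause of these shifts was not tested. Depth limits Cox4i2, Cox6a2, Cox7b2 and Cox8b, which had few counts.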
